A study of Mus musculus with 6 samples.

Results

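Cytochrome P450 (Cyp) genes of families 1 to 4 were followed in the mouse tracheal epithelium at rest and during its repair. The members were all probe sets whose array annotation gives exactly 1 gene symbol that begins with Cyp, a family number from 1 to 4, a subfamily letter and a gene number. This gave 69 probe sets of 56 genes, out of 45037 probe sets and 18193 named genes. Another 4 probe sets carry several gene symbols that include such a P450 and were left out.

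Epithelium came from adult male C57Bl/6 mice that were either uninjured (control) or killed 48 h after a 4 h exposure to 500 ppm sulfur dioxide (SO2) in air (48 h post injury, hpi), with 3 pools a group. Inhaled SO2 kills the luminal secretory and ciliated cells, and basal cells then divide to rebuild the layer. Each pool held the epithelium of 4 tracheas, peeled after dispase, dissociated with trypsin and depleted of CD45+ leukocytes with magnetic beads, and was hybridised to 1 Affymetrix array of the whole mouse genome. Pooling hides the spread between animals, so the errors below describe pools, and fewer cells of a type cannot be told apart from less RNA per cell in such material. Values are log2 expression after robust multi-array averaging (RMA), and a change is the 48 hpi mean minus the control mean. A probe set is called lower or higher where limma gives an adjusted p below 0.05 over all 45037 probe sets.

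P450 enzymes are heme proteins of the endoplasmic reticulum that insert oxygen into their substrates with electrons passed on by reductases and cytochrome b5. Families 1 to 3 mainly oxidise inhaled and ingested chemicals, steroids and some fatty acids, while family 4 hydroxylates the far end of fatty acids and of eicosanoids such as the leukotrienes. In the airway, secretory (club) cells are the best known site of these enzymes, and their P450 activity makes them sensitive to chemicals such as naphthalene.

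The DNA just before the start site is shown for 5 members that carry the results below. They are Cyp2b10 and Cyp4b1, which were among the most reduced genes, Cyp2f2, the classical P450 of the club cell, Cyp2a12, which holds a TATA box, and Cyp2b19, a gene of the Cyp2b cluster that stayed at background. The windows are the 250 bases upstream of the RefSeq start in GRCm38.p6, read 5′ to 3′ on the strand of the gene, namely chr7:25897408-25897657 (plus) for Cyp2b10, chr7:26756892-26757141 (plus) for Cyp2b19, chr4:115647722-115647971 (minus) for Cyp4b1, chr7:27119705-27119954 (plus) for Cyp2f2 and chr7:27028840-27029089 (plus) for Cyp2a12. Capitals mark every match, on either strand, to TATAAA (the TATA box), TTGCNNAA (a C/EBP site), TGTTTAC (a forkhead site) or GCGTG (the core bound by the aryl hydrocarbon receptor).
Cyp2b10: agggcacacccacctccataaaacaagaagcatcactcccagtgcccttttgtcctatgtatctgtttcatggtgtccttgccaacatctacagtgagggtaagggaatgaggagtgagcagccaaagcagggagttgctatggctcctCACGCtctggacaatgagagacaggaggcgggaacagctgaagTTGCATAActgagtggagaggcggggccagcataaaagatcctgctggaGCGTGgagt
Cyp2b19: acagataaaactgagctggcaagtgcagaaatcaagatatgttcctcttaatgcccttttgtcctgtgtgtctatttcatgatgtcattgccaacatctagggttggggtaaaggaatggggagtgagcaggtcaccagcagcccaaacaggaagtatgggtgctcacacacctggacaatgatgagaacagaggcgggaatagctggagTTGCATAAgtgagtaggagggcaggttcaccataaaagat
Cyp4b1: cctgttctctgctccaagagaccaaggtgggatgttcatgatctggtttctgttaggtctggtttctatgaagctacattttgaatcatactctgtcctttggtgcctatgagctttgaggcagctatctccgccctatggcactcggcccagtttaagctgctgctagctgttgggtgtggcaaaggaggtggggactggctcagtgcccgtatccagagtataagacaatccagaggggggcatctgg
Cyp2f2: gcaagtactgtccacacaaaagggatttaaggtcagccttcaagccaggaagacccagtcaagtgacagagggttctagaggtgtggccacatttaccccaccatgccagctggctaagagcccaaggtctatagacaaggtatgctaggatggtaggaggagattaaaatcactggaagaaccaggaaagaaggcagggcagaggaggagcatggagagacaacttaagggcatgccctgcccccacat
Cyp2a12: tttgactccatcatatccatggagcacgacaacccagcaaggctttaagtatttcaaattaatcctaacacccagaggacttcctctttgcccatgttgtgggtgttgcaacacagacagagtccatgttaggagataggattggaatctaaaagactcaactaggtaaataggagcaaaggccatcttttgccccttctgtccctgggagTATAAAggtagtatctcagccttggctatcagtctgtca
The Cyp2b10 window held the C/EBP letters once and the aryl hydrocarbon receptor core at 2 places. The Cyp2b19 window held the same C/EBP letters and no other match. No motif was found in the Cyp4b1 and Cyp2f2 windows, and Cyp2a12 held 1 TATA box.

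Such windows were available for 43 of the 56 member genes. The TATA box letters were present in 17 of these 43 genes, against 12.4% of all 32851 RefSeq windows of that length. A match counted on either strand and anywhere in the window (for Cyp3a11 at position -234), so it need not be a working TATA box. Members were counted by gene, with a match in any of its windows, and the share over RefSeq by window. Among the members with signal above background (defined next), 2 of 14 held these letters, Cyp2a12 and Cyp2c29, and among the members at background 15 of 29 did. The C/EBP letters were found in 8 of 43 members (9.56% of all windows), the forkhead letters in 6 of 43 (3.17%) and the aryl hydrocarbon receptor core in 10 of 43 (28.2%). Among the 14 members above background these matches numbered 2, 0 and 5. These counts describe letters in the windows, and closely related genes share much of their upstream sequence.

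Which P450 genes gave a signal at all was read against the 43 olfactory receptor probe sets of the array, whose genes belong to the sensory neurons of the nose. The 95th percentile of their group means was 4.84 in control and 4.73 at 48 hpi, and this value is called the olfactory receptor level. Of the 69 P450 probe sets, 20 exceeded it in control and 19 at 48 hpi, and the same 19 exceeded it in both. These 20 probe sets, 29.0% of the members, covered 15 genes, whereas 54.9% of all probe sets on the array exceeded the level in at least 1 group. By name the 15 genes were Cyp2a12, Cyp2b10, Cyp2c29, Cyp2f2, Cyp2j6, Cyp2j9, Cyp2s1, Cyp3a13, Cyp4a12a, Cyp4b1, Cyp4f13, Cyp4f15, Cyp4f16, Cyp4f39 and Cyp4v3. The remaining 49 probe sets were within the level in both groups, and for 41 genes no probe set exceeded it.

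The members nearest the line were close to it. In control the lowest probe set above the level was that of Cyp4f16 (1430173_x_at) at 5.08, and the highest below it was that of Cyp2d22 at 4.73. At 48 hpi Cyp2j9 lay just above at 4.83 and the same Cyp2d22 probe set just below at 4.66. By construction 3 of the 43 olfactory receptor probe sets also lay above the line. The highest of them, Olfr1509, was at 5.14 in both groups, and with that value as the line 19 P450 probe sets exceeded it in control and 14 at 48 hpi.

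**Figure D1:**
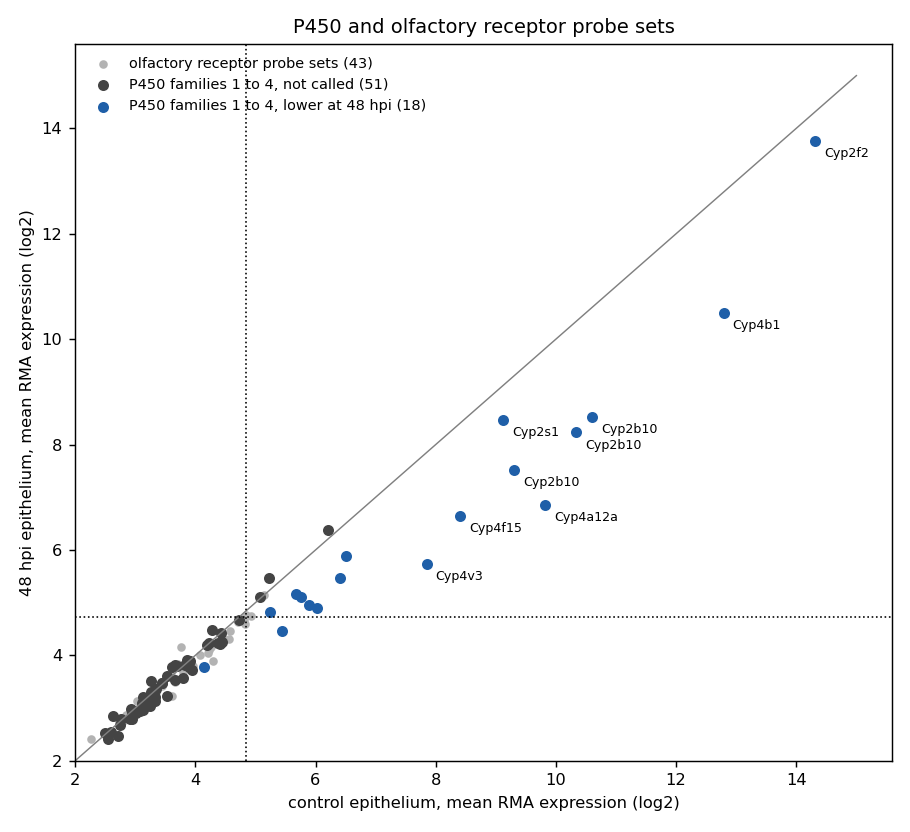
Mean RMA expression (log2) in control epithelium (x axis) and at 48 hpi (y axis), each over 3 pools, for the 69 P450 probe sets and the 43 olfactory receptor probe sets. Dotted lines are the olfactory receptor level of each group (4.84 and 4.73), and the diagonal marks equal means. The 18 P450 probe sets called lower lie below the diagonal, and most other members lie among the olfactory receptors.

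At 48 hpi every call among these genes was in 1 direction. No member was called higher, 18 probe sets of 14 genes were called lower, and 51 were not called. The share called lower was 26.1% of the members, beside 13.9% of all probe sets, and the share called higher was 0 beside 14.5%. Of the 20 member probe sets above the olfactory receptor level, 17 were called lower, where 21.1% of all probe sets above it were lower and 24.6% were higher. The median change of the 69 members was -0.10, close to the -0.03 of all probe sets and 49 of the 69 were within the olfactory receptor level. In none of the 18 did the 3 control pools overlap the 3 injured pools, and over all members the pools did not overlap for 29 of 69 probe sets, against 19554 of 45037 on the array. Of 17 alternative settings of the test, 3 were filters that dropped some members. All 18 kept a negative change under every setting that tested them. Only the settings that rescaled the arrays could have reversed a sign, since the pools of the 18 did not overlap. Of the 18, 8 were called under each setting that tested them, namely the probe sets of Cyp2b10, Cyp4a12a, Cyp4b1, Cyp4f15 and Cyp4v3. Scaling to equal hybridization controls moved the median change of all probe sets by 0.34, turned the calls on the whole array from 51.0% higher to 84.5% higher, and left 9 members called lower, those 8 and 1 probe set of Cyp2j6.

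**Figure D2:**
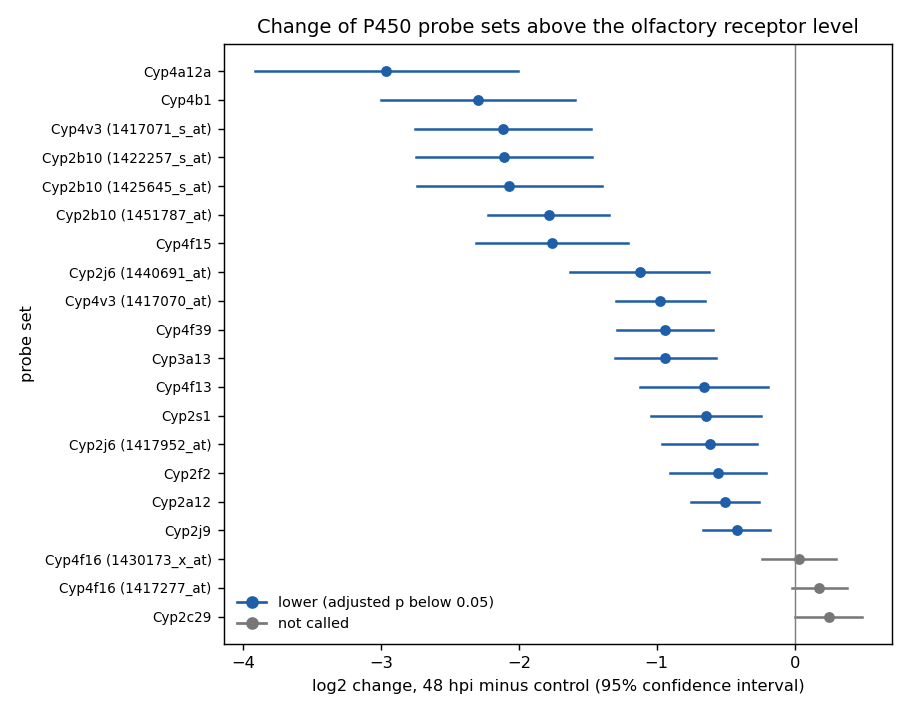
Log2 change (48 hpi minus control, 3 pools each) of the 20 P450 probe sets above the olfactory receptor level, with 95% confidence intervals from limma. Changes run from -2.96 for Cyp4a12a to 0.25 for Cyp2c29, and 17 of the 20 intervals lie below 0 and are called.

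Family 1 holds the enzymes that the aryl hydrocarbon receptor induces and that oxidise polycyclic aromatic compounds such as those of smoke. None of its 3 genes, Cyp1a1, Cyp1a2 and Cyp1b1, gave a signal above the olfactory receptor level. Their 5 probe sets had group means between 2.63 and 3.95 and changes between -0.30 and 0.22, and none was called.

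Family 2 was represented by 35 genes, of which 7 exceeded the level and 6 of these were called lower. Cyp2b10, the phenobarbital-inducible enzyme under control of the receptor CAR, fell most. Its probe set 1425645_s_at read 10.58, 10.59 and 10.62 in the control pools and 8.97, 8.88 and 7.73 at 48 hpi. The probe set 1422257_s_at read 10.28, 10.32 and 10.42 in control and 8.68, 8.52 and 7.49 after injury, and 1451787_at read 9.26, 9.33 and 9.31 against 7.77, 7.76 and 7.03. On all 3 probe sets the control pools lay close together, every injured pool was lower, and 48 hpi replicate 3 was the lowest. The log2 changes were -2.07 (SE 0.29), -2.11 (SE 0.28) and -1.78 (SE 0.19), which is a 4.20-, 4.31- and 3.44-fold lower signal, with limma adjusted p of 0.0015, 0.0011 and 0.00045. The other 3 measured genes of the Cyp2b subfamily had no signal above the olfactory receptor level in either group. Cyp2b23 was not measured, as no probe set carried its symbol alone. The first 2 Cyp2b10 probe sets are of a type that can also match related transcripts.

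Cyp2f2, the club cell enzyme that turns naphthalene into its toxic epoxide, lay near the top of the scale of the array, where 3 probe sets had a higher control mean. It read 14.33, 14.30 and 14.31 in control and 13.93, 13.95 and 13.39 at 48 hpi. The groups did not overlap, and 2 of the injured pools were nearly equal while the replicate 3 pool was lower. The change of -0.55 (SE 0.15, limma adjusted p = 0.027) is a 1.47-fold lower signal. The highest value of any probe set was 14.56, and differences this close to it can be compressed. The call was lost under 7 of 17 alternative settings, including each of those without 1 control pool (adjusted p = 0.066, 0.075 and 0.076 without control replicates 1, 2 and 3).

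Cyp2s1, an enzyme of epithelia outside the liver that is inducible by dioxin, read 8.79, 9.41 and 9.14 in control and 8.53, 8.66 and 8.23 at 48 hpi. The lowest control pool and the highest injured pool were close, but the groups did not overlap. The change was -0.64 (SE 0.17, limma adjusted p = 0.026), or 1.56-fold lower. The call was lost under 6 settings, among them those without control replicate 2 (change -0.49, adjusted p = 0.085), control replicate 3 (-0.63, 0.079), 48 hpi replicate 1 (-0.67, 0.056) and 48 hpi replicate 3 (-0.52, 0.071).

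The Cyp2j enzymes turn arachidonic acid into epoxides and hydroxy acids. For Cyp2j6, the probe set 1417952_at read 6.73, 6.41 and 6.36 in control and 6.09, 5.93 and 5.63 after injury, a change of -0.62 (SE 0.15, limma adjusted p = 0.017). Its other probe set, 1440691_at, read 6.09, 5.95 and 6.05 against 5.35, 4.99 and 4.37, a change of -1.13 (SE 0.22, adjusted p = 0.0062). Both probe sets thus placed every injured pool under every control pool, with different sizes. On 1440691_at the lowest injured pool was within the olfactory receptor level. With the t-test neither Cyp2j6 probe set was called (adjusted p = 0.097 and 0.076). Cyp2j9 read 5.27, 5.32 and 5.15 in control and 4.96, 4.85 and 4.66 at 48 hpi, a change of -0.42 (SE 0.11, limma adjusted p = 0.019), and its lowest pool was within the olfactory receptor level. That call was lost without control replicate 2 (adjusted p = 0.074) and without 48 hpi replicate 2 (0.0504). The other 3 measured genes of the subfamily were within the level in both groups, and Cyp2j8 and Cyp2j12 were not measured.

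Cyp2a12, a steroid hydroxylase, read 5.73, 5.71 and 5.57 in control and 5.29, 5.00 and 5.20 at 48 hpi. All injured pools were below all control pools, and the change was -0.50 (SE 0.11, limma adjusted p = 0.0091), a 1.42-fold lower signal. Cyp2c29, an arachidonic acid epoxygenase known from liver, was the exception in family 2. It read 5.29, 5.33 and 5.03 in control and 5.51, 5.48 and 5.41 at 48 hpi, so that the injured pools were slightly above the control pools. The difference of 0.25 (SE 0.10, 95% interval 0.01 to 0.49) did not pass the test across all probe sets (limma adjusted p = 0.12).

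The other 10 of the 11 measured Cyp2c genes and all 8 measured Cyp2d genes stayed within the olfactory receptor level. Among them 1 probe set was called, that of Cyp2d13 (1431803_at), which RefSeq lists as a transcribed pseudogene. It read 4.18, 4.17 and 4.09 in control and 3.79, 3.67 and 3.88 at 48 hpi, a change of -0.37 (SE 0.09, limma adjusted p = 0.019). Both means are background values by the measure used here. That call was lost without control replicate 2 (adjusted p = 0.066) and without 48 hpi replicate 2 (0.068).

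In family 3, the drug- and steroid-oxidising Cyp3a enzymes, 1 of 5 measured genes exceeded the level. Cyp3a13 read 6.37, 6.29 and 6.54 in control and 5.70, 5.59 and 5.11 at 48 hpi. The groups did not overlap, and the change of -0.94 (SE 0.16, limma adjusted p = 0.0034) is a 1.91-fold lower signal.

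Family 4 had the largest share of member probe sets above the level, 52.9% (9 of 17), near the 54.9% of all probe sets. The share was 23.8% in family 2 (10 of 42) and 20.0% in family 3 (1 of 5). Of the 13 measured genes of family 4, 7 exceeded the level and 6 of these were called lower. The largest change of any member was that of Cyp4a12a, which hydroxylates arachidonic acid to a vasoactive product. It read 9.85, 9.59 and 10.03 in control and 7.88, 6.76 and 5.94 at 48 hpi. The injured pools spanned a wide range (SD 0.97, against 0.22 in control), and the highest of them was still well under the lowest control pool. The change was -2.96 (SE 0.41, limma adjusted p = 0.0014), or 7.79-fold lower. Its close paralog Cyp4a12b can share this probe set, so that the signal may belong to either gene. The other 2 Cyp4a genes measured were within the olfactory receptor level.

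Cyp4b1, a lung enzyme of fatty acids that also activates plant and aromatic toxins, read 12.71, 12.77 and 12.89 in control and 11.06, 10.73 and 9.68 at 48 hpi. Every injured pool was clearly under the controls and replicate 3 was again the lowest. The change was -2.30 (SE 0.31, limma adjusted p = 0.0012), a 4.91-fold lower signal. Cyp4v3, the mouse counterpart of the fatty acid hydroxylase that is mutated in a human retinal dystrophy, read 7.90, 7.88 and 7.77 in control and 6.18, 6.03 and 4.99 at 48 hpi on the probe set 1417071_s_at. On its other probe set, 1417070_at, it read 5.58, 5.41 and 5.33 in control and 4.60, 4.63 and 4.17 at 48 hpi. The former changed by -2.12 (SE 0.28, limma adjusted p = 0.0011) and the latter by -0.97 (SE 0.14, 0.0016), and on the latter all injured pools were within the olfactory receptor level. The size of that second change is therefore read against background and is not exact. The probe set with the larger change, 1417071_s_at, is of a type that can also match related transcripts.

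The Cyp4f enzymes hydroxylate leukotrienes and long fatty acids, and 4 of the 7 genes measured exceeded the level. Cyp4f15 read 8.45, 8.34 and 8.45 in control and 6.99, 6.95 and 6.02 at 48 hpi, a change of -1.76 (SE 0.24, limma adjusted p = 0.0013) or 3.39-fold lower. Cyp4f39, whose human counterpart acts on the very long fatty acids of the skin barrier, read 5.73, 5.82 and 6.13 against 5.08, 5.09 and 4.68, a change of -0.94 (SE 0.15, adjusted p = 0.0027). In both genes the injured pools were all lower than the controls, and the lowest injured pool of Cyp4f39 was just within the olfactory receptor level.

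Cyp4f13 and Cyp4f16 behaved less clearly. Cyp4f13 read 5.62, 5.84 and 5.81 in control and 4.77, 5.60 and 4.93 at 48 hpi, where 1 injured pool lay next to the lowest control pool. Its change of -0.66 (SE 0.20, limma adjusted p = 0.043) was lost under 10 of 17 settings. Among these were 5 that left out 1 pool, with limma adjusted p of 0.062, 0.13 and 0.12 without control replicates 1, 2 and 3, of 0.12 without 48 hpi replicate 1 and of 0.11 without 48 hpi replicate 3. Cyp4f16 was not called on either probe set. On 1417277_at it read 6.20, 6.27 and 6.14 in control and 6.41, 6.43 and 6.31 at 48 hpi, so the injured pools were slightly higher without overlap. This difference of 0.18 (95% interval -0.02 to 0.38, limma adjusted p = 0.17) and that of 0.03 on 1430173_x_at (-0.24 to 0.30, adjusted p = 0.88) did not pass the test.

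**Figure D3:**
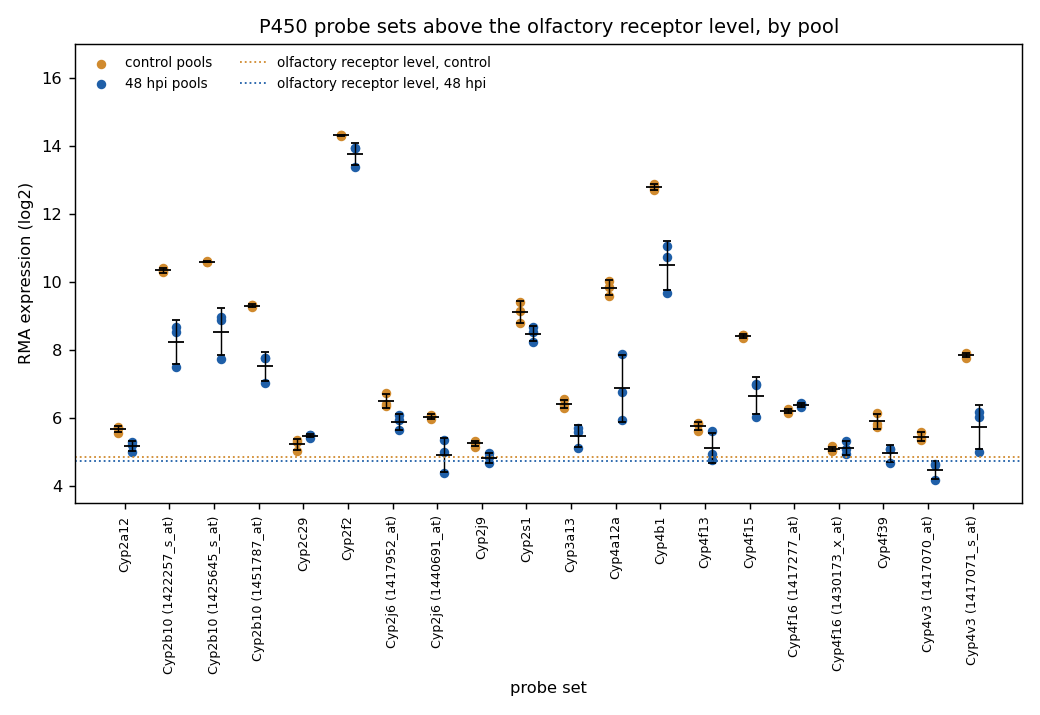
RMA expression (log2) of each pool for the 20 P450 probe sets above the olfactory receptor level, control in orange and 48 hpi in blue, with bars for the mean and SD over 3 pools and dotted lines for the olfactory receptor level of each group. Control pools lie close together for most genes, while the injured pools of Cyp2b10, Cyp4a12a, Cyp4b1, Cyp4f15 and Cyp4v3 spread wider and lower.

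The injured pools did not lose P450 signal to the same degree. Distances from the control mean were averaged over the 17 probe sets above the level that were called lower. They were -1.04 for 48 hpi replicate 1, -1.15 for replicate 2 and -1.78 for replicate 3. Of the 3 injured arrays, replicate 3 was the lowest in 15 of the 17. That array correlated with its own group at a mean r of 0.991, the others at 0.992 to 0.994. Without it 16 of the 18 calls held, and those of Cyp2s1 and Cyp4f13 did not. The secretory cell markers moved the same way. Their mean level over 12 genes was 12.20 to 12.32 in the control pools and 10.21 to 11.30 in the injured pools, and 10 of the 12 were called lower, 0 higher. Pigr (change -2.46) and Creb3l1 (-2.14) were among the lower genes, whereas Scgb1a1 (-0.51, limma adjusted p = 0.060) and Bpifa1 (-0.45, 0.15) did not pass the test. Like Cyp2f2, Scgb1a1 and Bpifa1 lay near the top of the scale (control means 14.49 and 14.54), so their differences can be compressed. Of 13 ciliated cell markers 10 were lower. The mean level of the list was 5.38 to 6.32 in the control pools and 4.46 to 5.00 in the injured pools. The probe sets of Dnah5, Spag6 and Spag17 were within the olfactory receptor level in both groups. Over the alternative settings the ciliated markers called lower ran from 4 (t-test, and without control replicate 2) to 11 (array weights). The secretory markers called lower ran from 2 (t-test) to 11 (mean-variance trend). Foxj1, the ciliated cell regulator, was at 7.84 in control and 7.80 at 48 hpi. Of 10 basal cell markers 3 were higher (Krt14 by 3.18, Itga6 by 0.80 and Krt5 by 0.69) and 2 were lower (Ngfr by 0.66 and Pdpn by 0.35). The Pdpn call was lost under 9 of 17 settings, and the 2 other probe sets of Ngfr were not called. Trp63 had a change of -0.34 that was not called (limma adjusted p = 0.12), but 1 of its 3 other probe sets was called lower. The mean level of the basal list was 9.84 to 10.02 in control and 10.22 to 10.27 after injury. The part of these marker changes in the P450 results was not tested.

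For cells outside the epithelium, the pan-leukocyte gene Ptprc (CD45) was within the olfactory receptor level in both groups, as were Adgre1, Cd79a, S100a8 and S100a9, and the mean of the 10 leukocyte markers was 6.05 to 6.09 in control and 5.35 to 5.84 at 48 hpi. Of these 10 genes 2 were lower, Lyz2 by 3.14 and Csf1r by 0.84. The injured pools of Lyz2 spanned 12.35, 10.99 and 8.57, and its call was lost under 4 settings. The 2 other probe sets of Csf1r were not called. The 5 endothelial markers had no call. Of 6 fibroblast markers Dcn was lower (10.32 in control and 8.47 at 48 hpi, change -1.85), though its 1 other probe set was not called. The other 5 markers were within the olfactory receptor level in control, and Col1a1 and Col3a1 exceeded it at 48 hpi. Their changes were above 0 and not called, the largest that of Col3a1 (1.04, limma adjusted p = 0.15). The median change of the fibroblast list was 0.37, its mean level was 5.10 to 5.21 in control and 4.95 to 5.86 at 48 hpi, and 4 of its genes passed as higher once arrays were scaled to the hybridization controls, as did 2 without 48 hpi replicate 1. Of 7 cartilage and muscle markers Chad (change -2.68) and Myh11 (-0.43, within the olfactory receptor level) were lower. The mean level of that list was 5.53 to 5.63 in control and 5.08 to 5.21 at 48 hpi, and Chad carried most of its fall. Chad was at 11.68 in control, while the next highest of the list, Des, was at 5.81 and Col2a1 and Comp were within the olfactory receptor level.

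Most of these genes lie in clusters of relatives, so their neighbours offer a comparison within a chromosome. On chromosome 7, 10 member genes were measured. In chromosome order Cyp2s1 and Cyp2b10 were called lower. The next 4 measured genes, Cyp2b13, Cyp2b9, Cyp2b19 and Cyp2g1, were within the olfactory receptor level, and Cyp2a12 and Cyp2f2 were again called lower. That stretch also holds the protein-coding Cyp2a4, Cyp2b23, Cyp2a5 and Cyp2a22, which were not measured, so nothing can be said of them. On chromosome 4, 4 of 10 measured genes were above the level and all 4 were lower, with Cyp2j6 beside Cyp2j9 and with Cyp4a12a and Cyp4b1 apart from each other. On chromosome 17 the Cyp4f genes called lower were mixed with Cyp4f16, which was not called, and with Cyp4f14, which was at background. On chromosome 19, 1 of 11 measured genes, Cyp2c29, was above the level and none was lower.

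**Figure D4:**
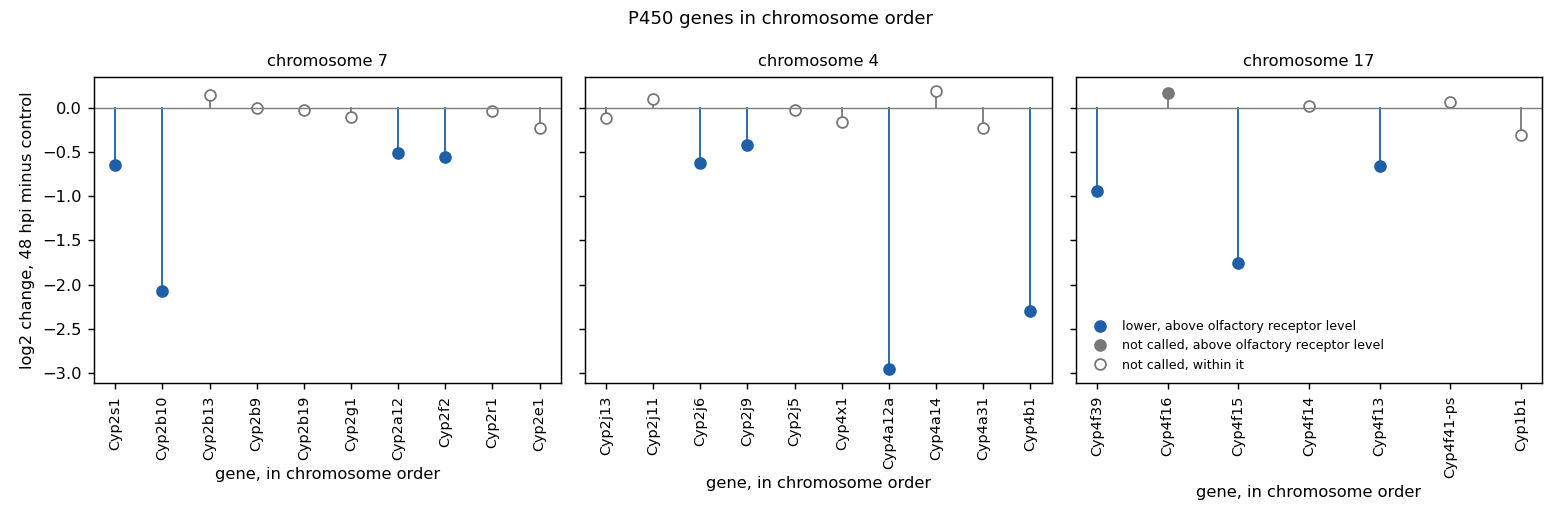
Log2 change (48 hpi minus control) of the measured P450 genes of chromosomes 7, 4 and 17 in RefSeq chromosome order (equal spacing, not distance), each by its brightest probe set. Filled points exceeded the olfactory receptor level in at least 1 group, and blue marks genes called lower. On chromosome 7, 4 measured genes at background lie between Cyp2b10 and Cyp2a12, both called lower, and genes there that were not measured are left out.

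P450 families 5 and above, which mostly make or clear steroids, bile acids, vitamin D and retinoic acid, had 26 probe sets of 16 genes. Of these 8 exceeded the level, 4 were called lower (15.4%, beside 13.9% of all probe sets) and 0 higher. The 4 were both probe sets of Cyp7b1, an oxysterol hydroxylase, that exceeded the level (changes of -1.76 and -1.03), and those of Cyp26b1, which clears retinoic acid (-0.81), and Cyp39a1, another oxysterol hydroxylase (-0.62, limma adjusted p = 0.049). The difference between these families and families 1 to 4 was not tested.

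The partners of the P450 enzymes were read from lists of genes, each by its brightest probe set. Of 4 measured electron donors and P450-associated proteins 3 were lower and 0 higher. Pgrmc1, a heme-binding membrane protein that associates with P450s, read 12.14, 12.18 and 12.21 in control and 11.26, 11.11 and 10.57 at 48 hpi (change -1.20, SE 0.17, limma adjusted p = 0.0014). Cyb5a, the cytochrome b5 of the endoplasmic reticulum, fell by 0.83 and its reductase Cyb5r3 by 0.81, and in all 3 genes the groups were apart. Cyb5b, the mitochondrial form, had a change of 0.21 on this probe set (adjusted p = 0.17), but its other 2 probe sets were called higher. The main electron donor Por was not analysed here, as no probe set carried its symbol alone.

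Of 7 measured genes of heme synthesis 1 was lower and 1 higher. Alas1, the rate-limiting enzyme of the pathway, read 10.99, 11.29 and 10.91 in control and 10.56, 10.21 and 9.40 at 48 hpi. All injured pools were lower, by -1.01 in the mean (SE 0.27, limma adjusted p = 0.024), a call lost under 5 of 17 settings. Among these were the fits without control replicates 1, 2 and 3 (limma adjusted p = 0.053, 0.089 and 0.052) and without 48 hpi replicate 2 (0.0501). Cpox, a later enzyme of the pathway, rose by 0.45 (SE 0.10, adjusted p = 0.011). Heme breakdown was split as well, with 1 of 4 higher and 2 lower. The biliverdin reductase Blvra rose by 0.74 (SE 0.10, adjusted p = 0.0012) and Blvrb fell by 0.72 (SE 0.09). Hmox1, the inducible heme oxygenase, read 6.97, 6.61 and 6.72 in control and 6.23, 6.44 and 6.02 at 48 hpi, a change of -0.54 (SE 0.14, adjusted p = 0.022) that was lost under 6 settings. It did not pass without control replicate 1 (limma adjusted p = 0.060) or 3 (0.054), nor without 48 hpi replicate 1 (0.056) or 3 (0.054).

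Of the aryl hydrocarbon receptor pathway, which induces family 1 and Cyp2s1, 1 of 5 measured genes was lower and 0 higher. The receptor Ahr read 10.18, 9.98 and 10.08 in control and 9.49, 9.53 and 9.50 at 48 hpi, a change of -0.57 (SE 0.09, limma adjusted p = 0.0022) with pools of each group close together. Its other probe set was not called. The target gene Nqo1 (change -0.34, adjusted p = 0.13) and the partner Arnt (-0.29, 0.14) did not pass the test, and the repressor Ahrr was within the olfactory receptor level. Of 9 nuclear receptors that regulate P450 genes 1 was lower and 1 higher. The fatty acid receptor Ppara, which regulates Cyp4a genes, fell by 0.57 (SE 0.10, adjusted p = 0.0050), and Ppard rose by 0.51 (SE 0.12, adjusted p = 0.015; 0.056 without control replicate 3). Pparg had a change of -0.29 (adjusted p = 0.052). Nr1i3 (CAR) and Nr1i2 (PXR), the receptors that induce Cyp2b and Cyp3a genes in liver, were within the olfactory receptor level in both groups. Of the epoxide hydrolases, which open the epoxides that P450s form, the microsomal Ephx1 read 10.50, 10.60 and 10.40 in control and 9.49, 9.36 and 8.93 at 48 hpi, a change of -1.24 (SE 0.15, adjusted p = 0.00072). The soluble Ephx2 was within the level. With equal hybridization controls Cyb5a, Cyb5r3, Blvrb, Hmox1, Ahr and Ppara were no longer called, while Pgrmc1, Alas1 and Ephx1 still were.

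**Figure D5:**
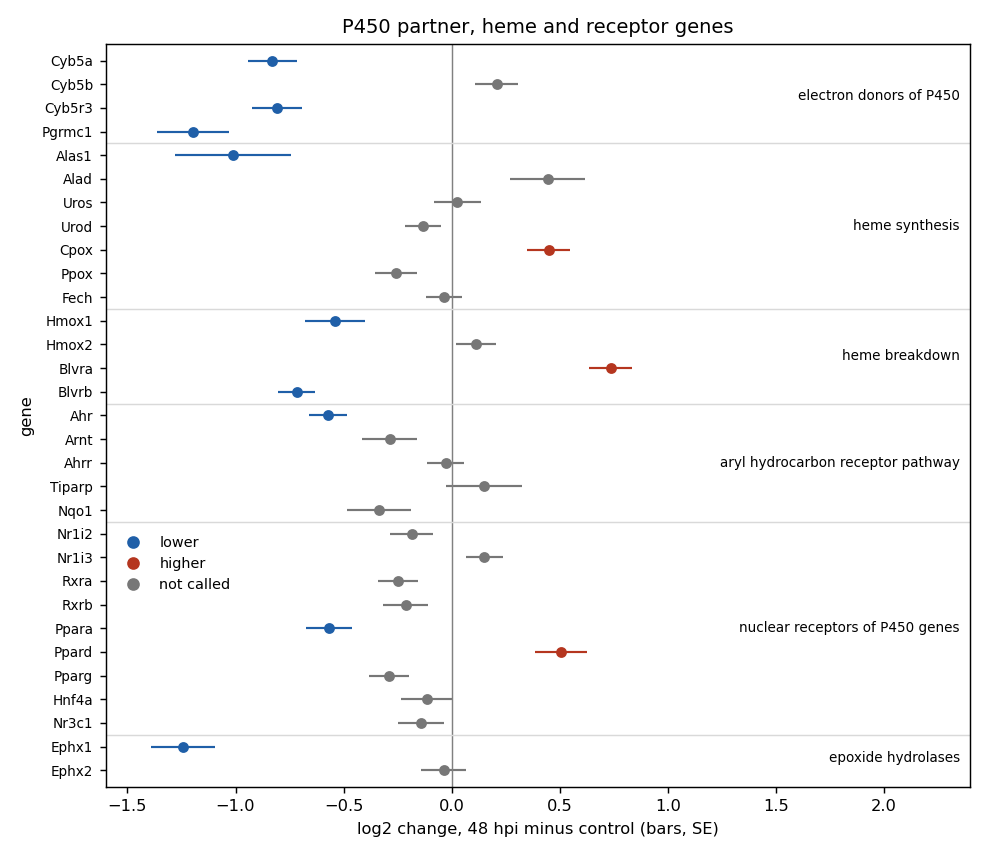
Log2 change (48 hpi minus control, 3 pools each) of the partner, heme, receptor and epoxide hydrolase genes, with SE bars, each gene by its brightest probe set. Blue marks genes called lower, red higher and grey not called. Pgrmc1, Alas1 and Ephx1 fell by more than 1 on the log2 scale, while the receptors lie closer to 0.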

How the data were processed

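The authors hybridised RNA of 6 epithelial pools to Affymetrix mouse genome arrays and deposited log2 expression values made by RMA, with Affymetrix Expression Console 1.1 and Partek 6.5 named in the processing notes. RMA forces the arrays to a like distribution, so a change common to most genes cannot be seen, and the number of arrays limits the precision. Gene names came from the platform annotation (34958 probe sets with 1 symbol, 932 with several, 9211 with none), and all 56 member symbols matched RefSeq by gene ID. The 64 Affymetrix control probe sets were left out. The deposited values were tested in R 4.3.3 with limma 3.58.1 (lmFit, eBayes; 48 hpi against control) over 45037 probe sets, with Benjamini-Hochberg adjustment over all and a threshold of 0.05. The script was checked on simulated data. Members, gene lists and tests were chosen with earlier results of these data known, so no list is independent evidence. Every member above the olfactory receptor level was named, those within it only where called or to describe a cluster, a family or the level itself, and list genes by the smallest p, with some others chosen after their values were seen. Alternatives covered the variance prior, an equal-variance t-test, the scaling, the filters, the replicate block, array weights and each array left out. Where an array was left out of a group, the other arrays shared 1 estimate of spread. Figures used Python 3.11.15 and matplotlib 3.10.9.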

Additional observations from a re-analysis of the deposited data

How the results depend on the processing

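None of the 18 called member probe sets changed direction under repeated quantile normalization, the common median or equal hybridization controls. The others of the 17 settings could not reverse a sign, since the pools of the 18 did not overlap. The causes of the differences below were not tested. Against 18 members called lower, the settings gave 9 (equal hybridization controls, where limma used 1 common spread for all probe sets), 12 (an equal-variance t-test, adjusted over all probe sets, and a stricter adjusted p of 0.01), 15 (common median), 16 (repeated quantile normalization), 20 (a mean-variance trend) and 19 (array weights), and leaving out 1 array gave 13 to 16, the lowest without control replicate 2. With arrays shifted to a common median 1 member was called higher, a Cyp1b1 probe set at background (0.30, limma adjusted p = 0.043), and 64.1% of all calls were higher. Of the other P450 families, 1 probe set was called lower with the t-test and 2 with equal hybridization controls and when the x and s types were dropped, against 4. The replicate numbers were not used as pairs, since nothing states a shared day or batch and the deviations of same-numbered pools correlated at 0.20, 0.08 and 0.19, not all above 0.1. With the replicate block 18 members were lower, the same probe sets, and 6 of 6 arrays correlated best with their own number, a hint of pairing from the data only. Under the highest olfactory receptor 14 rather than 19 probe sets exceeded the level at 48 hpi, and leaving out 1 array gave 18 to 20. Signal near background limits what can be said of the 41 genes within the level.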
